A study of Mus musculus with 24 samples.

Results

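The collagen genes of mouse sciatic nerve were followed in 4 genotypes at 3 ages on 24 Affymetrix arrays, with 2 arrays for each of the 12 groups. Members were the probe sets, the groups of short probes that measure a transcript, whose only annotated symbol was a collagen alpha chain. The brightest probe set by mean over the 24 arrays stood for each gene. In this way 58 probe sets gave 36 collagen genes of 12393 genes on the array. They comprised 9 fibrillar collagens, 8 basement membrane collagens and 19 others. The others were 9 fibril-associated collagens (FACITs), 3 type VI chains, 2 network collagens (Col8a1 and Col10a1), 3 transmembrane collagens (Col13a1, Col17a1 and Col25a1), the anchoring fibril collagen Col7a1, and Col26a1.

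Collagens are trimeric extracellular matrix proteins. Their chains are hydroxylated and folded in the endoplasmic reticulum (ER), exported, trimmed and then cross-linked outside the cell. In peripheral nerve the fibrils of types I, III and V are made largely by endoneurial and epineurial fibroblasts. The basement membranes around each Schwann cell-axon unit, perineurial cell and capillary are built on type IV networks, with types XV and XVIII associated with them.

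The groups were WT, Chop null, S63del and S63del/Chop null, each at postnatal day 5 (P5), P28 and 4 months. S63del is the study's mutant genotype, a model of the inherited neuropathy Charcot-Marie-Tooth disease type 1B. Chop is a transcription factor induced by ER stress, and the last genotype carries the mutant without Chop. The labels state that the sheath around the nerve was taken off before RNA extraction, and do not give the number of animals behind an array. The 2 arrays of a group are labelled as biological replicates.

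Expression values are on a log2 scale, so a difference of 1 is a 2-fold change. They are written as the value on each array, and differences as the difference of group means ± its standard error (SE). A gene was called changed at an adjusted p under 0.05 from limma, with Benjamini-Hochberg adjustment over the 12393 genes. Levels of different genes are not compared, because each probe set has its own brightness. Of the 36 collagens, 13 lay in the top 10% of genes by brightness and 14, called dim below, lay under the 40th percentile. The means of these 14 ran from 3.65 for Col17a1 to 6.57 for Col9a1, and the lowest value on any array was 2.46.

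RefSeq promoter windows (build GRCm38.p6) were at hand for 27 of the 36 genes, in 30 windows that span 250 bases before to 50 bases after a start. The stretches below belong to some of the collagens that differed with genotype. Col18a1 and Col16a1 were higher at P28 with both S63del genotypes pooled, and Col9a1 has 2 annotated starts and 2 probe sets that disagreed. Each shows the 150 bases before a start, 5′ to 3′ on the gene's own strand. Col4a1, which also differed, and Col4a2, which did not pass in any genotype comparison, are read in opposite directions from starts that overlap by 22 bases. For that pair 30 bases on the plus strand are shown, which hold both starts. Capitals mark the CCAAT box, the GC box read as GGGCGG, or the TATA box read as TATAAA, on either strand.
Col18a1 outer start, chr10:77166531-77166680, minus strand: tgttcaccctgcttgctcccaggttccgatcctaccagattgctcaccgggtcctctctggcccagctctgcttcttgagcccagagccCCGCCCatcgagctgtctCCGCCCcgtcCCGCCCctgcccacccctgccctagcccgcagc
Col18a1 inner start, chr10:77113706-77113855, minus strand: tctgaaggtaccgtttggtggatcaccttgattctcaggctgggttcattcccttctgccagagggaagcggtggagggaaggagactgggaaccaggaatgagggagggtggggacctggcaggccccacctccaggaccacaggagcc
Col16a1, chr4:130047690-130047839, plus strand: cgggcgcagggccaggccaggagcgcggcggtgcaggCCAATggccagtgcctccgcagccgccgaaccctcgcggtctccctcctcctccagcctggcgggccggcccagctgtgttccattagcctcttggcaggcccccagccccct
Col9a1 outer start, chr1:24177460-24177609, plus strand: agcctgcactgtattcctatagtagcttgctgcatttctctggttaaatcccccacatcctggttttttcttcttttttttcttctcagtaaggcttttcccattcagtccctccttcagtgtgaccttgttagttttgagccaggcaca
Col9a1 inner start, chr1:24195053-24195202, plus strand: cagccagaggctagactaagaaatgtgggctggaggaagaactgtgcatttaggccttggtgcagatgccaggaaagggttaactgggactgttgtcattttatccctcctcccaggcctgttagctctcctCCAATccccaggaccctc
Col4a1 and Col4a2, chr8:11312801-11312830, plus strand: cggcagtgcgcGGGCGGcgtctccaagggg

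The outer Col18a1 start holds 3 GC boxes, all on the other strand, and the inner one holds none of the 3 motifs. Col16a1 and the inner Col9a1 start hold 1 CCAAT each. In the 250 bases before the start, the CCAAT box on either strand was present in 12 of the 30 collagen windows and in 33.8% of all 32851 windows. The GC box was present in 16 of 30 and in 32.7% of all, and the TATA box in 5 of 30 and in 12.4% of all. The ER stress response element, searched as CCAAT followed after 9 bases of any kind by CCACG, was in none of the 30 and in 0.113% of all. These letter matches are descriptions of the windows and not binding sites.

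Array medians lay between 6.84 and 7.03. The spread of values was narrower on the P28 arrays, with an interquartile range of 2.77 to 3.41 against 3.71 to 3.85 at the other ages. Age and this narrowing cannot be told apart. At P28 the range also split by genotype, at 2.77 to 3.25 without the mutant and 3.27 to 3.41 with it. The narrowest was Chop null P28 replicate 2, whose group had the largest residual spread. WT 4-month replicate 1 had a 3′ to 5′ difference of 2.12 for the Gapdh control, against -0.22 to 1.32 on the other arrays. The 3′ 18S ribosomal RNA control read 9.43 to 10.57 on the 4 P28 arrays without the mutant and 5.92 to 6.71 on the 4 with it. At the other ages it did not split this way, with 7.32 to 8.66 at P5 and 6.37 to 7.10 at 4 months. It moves with the genotype comparison at P28, and its part in the results there was not tested.

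**Figure D1:**
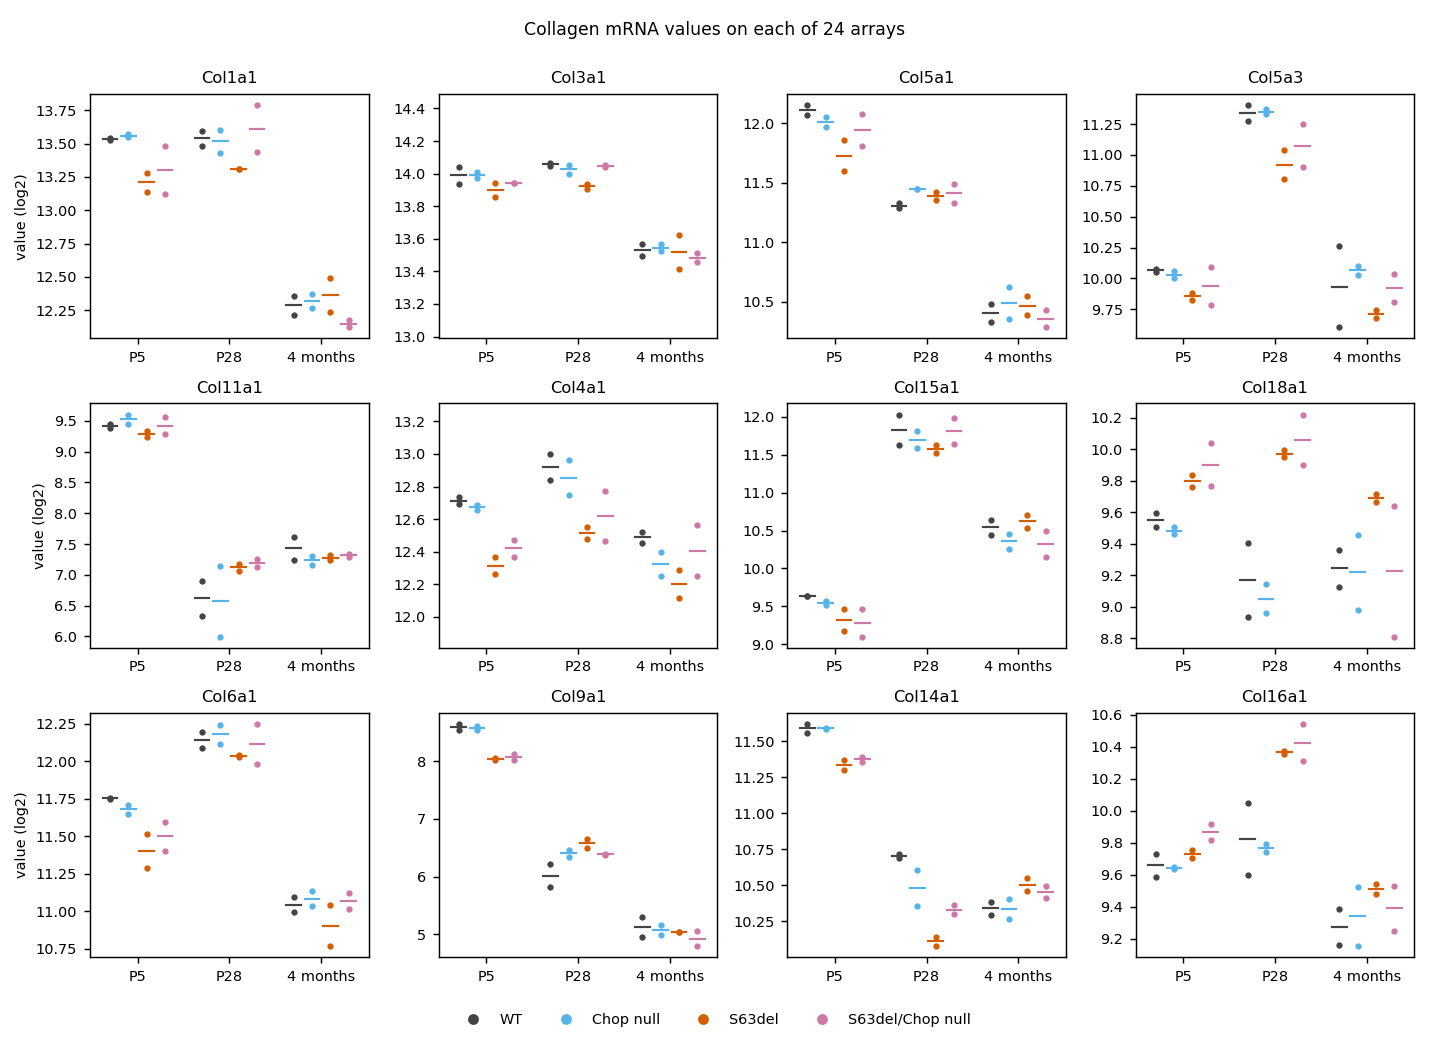
Log2 values of 12 collagens on each of the 24 arrays, by age (horizontal) and genotype (colour), each dot 1 array and each dash a group mean; the vertical scale differs between panels. Col15a1 peaks at P28, Col1a1 and Col6a1 are lowest at 4 months, Col11a1 and Col9a1 are highest at P5, and Col18a1 and Col16a1 separate both S63del genotypes from the others at P28.

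Between P5 and P28 in WT nerve, 21 of the 36 collagens changed, 14 higher and 7 lower. Over all genes 59.5% were called in this comparison, 31.3% higher and 28.2% lower, so the collagens' share, 58.3%, was near the background. Their median difference was 0.20 against 0.08 for all genes. The counts by class, whose difference was not tested, were as follows. Of the 8 basement membrane collagens, 5 rose and none fell, while the 9 fibrillar collagens gave 2 higher and 3 lower and the 19 others 7 higher and 4 lower.

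Among the basement membrane collagens, Col15a1, the core of a proteoglycan that links basement membrane to fibrils, read 9.63 on both WT arrays at P5, 11.63 and 12.03 at P28, and 10.64 and 10.45 at 4 months. The P28 values are the highest and no ages overlap. In WT, P5 and P28 do not overlap in 30 of the 36 collagens, nor P28 and 4 months in 32. The share of all genes without overlap was not counted here or below, so these counts are no result about collagens. Col15a1 rose by 2.20 ± 0.17 from P5 to P28 (4.58-fold, limma adjusted p = 4.38e-08) and fell by 1.29 ± 0.17 afterwards (adjusted p = 2.47e-05). Every genotype followed this course, with 9.10 to 9.63 over the 8 arrays at P5, 11.52 to 12.03 at P28 and 10.16 to 10.71 at 4 months.

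The main type IV chains, Col4a1 and Col4a2, form the network of nearly all basement membranes. Col4a1 read 12.69 and 12.73 in WT at P5, 12.84 and 13.00 at P28, and 12.45 and 12.52 at 4 months. Col4a2 read 11.34 and 11.27, then 11.49 and 11.63, then 11.08 and 11.28. The rise of neither to P28 passed the test in WT (0.21 ± 0.13, adjusted p = 0.178, for Col4a1 and 0.25 ± 0.13, adjusted p = 0.112, for Col4a2). Both fell from P28 to 4 months, Col4a1 by 0.43 ± 0.13 and Col4a2 by 0.37 ± 0.13. The pair kept the same order of ages in WT.

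The minor type IV chains are restricted to certain basement membranes, and here they read low. Col4a3 was 4.23 and 4.24 at P5 and 5.54 and 5.37 at P28, and Col4a4 was 4.23 and 4.48 and then 5.35 and 5.66. They rose by 1.22 ± 0.17 and 1.15 ± 0.19. Genes under the 40th brightness percentile had a median shift of 0.38 over this step, and the 14 dim collagens one of 0.44. Col4a5 rose by 0.52 ± 0.20 and Col4a6 by 0.45 ± 0.17. The Col4a6 call was lost without any 1 of the 4 WT arrays, and that of Col4a5 without any but WT P28 replicate 1. Col18a1, the source of endostatin, read 9.60 and 9.50 at P5 and 8.94 and 9.41 at P28 in WT, a difference of -0.38 ± 0.22 that did not pass (adjusted p = 0.148).

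Of the fibrillar collagens, the abundant interstitial chains were near the top of the array's range. Col1a1 read 13.53 and 13.54 at P5 and 13.48 and 13.59 at P28, Col1a2 13.80 and 13.82 and then 13.99 and 14.01, and Col3a1 13.94 and 14.04 and then 14.07 and 14.05. None of the 3 differed in WT between these ages (adjusted p = 0.141 for Col1a2, the smallest of the 3). The highest value on any array was 14.31, so these probe sets had little room to rise, and a lack of difference here is no measure of a steady level.

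The type V chains, which regulate fibril diameter, moved in different directions. Col5a1 read 12.15 and 12.07 in WT at P5 and 11.28 and 11.33 at P28, and fell by 0.80 ± 0.13 (adjusted p = 6.41e-05). Its other probe sets changed less. In WT they read 11.23 and 11.22 then 10.96 and 11.18, and 9.79 and 9.90 then 9.86 and 9.80. Col5a2 fell by 0.47 ± 0.12. Col5a3, a chain that Schwann cells are known to make, read 10.08 and 10.05 at P5 and 11.27 and 11.40 at P28, and rose by 1.27 ± 0.17 (2.42-fold, adjusted p = 1.41e-05). Col11a1, the type XI chain that nucleates thin fibrils in cartilage and embryonic tissue, read 9.45 and 9.39 at P5 and 6.33 and 6.90 at P28, and fell by 2.80 ± 0.25 (6.95-fold, adjusted p = 1.96e-07). It had the largest fall of the 36.

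Col9a1, a FACIT of cartilage fibrils, read 8.65 and 8.54 in WT at P5, 6.21 and 5.82 at P28, and 4.95 and 5.30 at 4 months. It fell by 2.58 ± 0.14 over the first step (adjusted p = 7.05e-10) and by 0.89 ± 0.14 over the second. The 8 cartilage markers averaged 4.53 to 4.73 on the P5 arrays and 5.15 to 5.85 at P28. Among them Matn1 read 3.16 to 3.33 and Hapln1 3.21 to 3.47 at P5, close to the array's lowest readings. The 5 measured tendon markers averaged 7.33 to 8.40 at P5, 6.68 to 6.89 at P28 and 6.88 to 7.13 at 4 months, but not all fell. The cornea and tendon proteoglycan gene Kera read 7.30 to 8.35 at P5 and 3.62 to 4.15 at P28, and Tnmd 6.21 to 9.19 and 5.45 to 6.16. Scx read 3.69 to 4.12 and 3.68 to 4.23, Thbs4 11.45 to 11.79 and 11.06 to 12.08, and Fmod 7.58 to 8.84 and 8.35 to 9.17. The part of tendon cells in the falls of Col9a1 and Col11a1, and in those of Col14a1 and Col12a1 over the same step, was not tested.

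The FACITs Col14a1 and Col12a1, which coat type I fibrils, fell by 0.88 ± 0.10 and 0.72 ± 0.16. Col14a1 went from 11.56 and 11.62 to 10.72 and 10.69. The network collagen Col8a1, found around vessels and in other matrices, read 9.31 and 9.17 at P5 and 10.002 and 10.05 at P28 and rose by 0.79 ± 0.15. The type VI chains of the beaded microfibrils changed less. Col6a1 rose by 0.39 ± 0.12 and Col6a2 by 0.37 ± 0.15. Col6a3 read 11.66 and 11.64 and then 11.63 and 11.73.

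Between P28 and 4 months in WT, 25 of 36 collagens changed and 24 of them were lower. Over all genes 57% were called, 31.5% higher and 25.5% lower. The collagens' median difference was -0.61 against 0.03 for all genes. Of the 9 fibrillar collagens 7 fell, of the 8 basement membrane collagens 3 and of the 19 others 14. This direction was not that of bright genes in general. All 13 collagens in the top 10% by brightness were lower (median -0.71), where genes of that bin had a median of 0.24 and 12.9% were lower. The 14 dim collagens had a median of -0.45 and dim genes one of -0.35, so among dim members the fall was near that of other dim genes.

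All 3 interstitial chains fell. Col1a1 read 12.21 and 12.36 at 4 months, against 13.48 and 13.59 at P28, and fell by 1.25 ± 0.14 (2.38-fold, adjusted p = 4.49e-06). Col1a2 fell by 0.71 ± 0.11 to 13.30 and 13.27, and Col3a1 by 0.53 ± 0.09 to 13.57 and 13.49. In these 3 genes no 4-month array of any genotype reached the lowest P28 array, and in 22 of the 36 collagens these ages do not overlap. Col5a1 fell by 0.90 ± 0.13, Col5a2 by 0.53 ± 0.12, and Col5a3 by 1.41 ± 0.17 to 9.60 and 10.26.

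All 3 type VI chains fell together, Col6a1 by 1.10 ± 0.12, Col6a2 by 1.16 ± 0.15 and Col6a3 by 0.69 ± 0.13. Col6a1 read 12.09 and 12.19 at P28 and 10.99 and 11.10 at 4 months. Col8a1 fell by 1.16 ± 0.15, and Col26a1 had the largest fall, 1.60 ± 0.19, from 8.81 and 8.43 to 6.79 and 7.24. The exception was Col11a1, which read 7.61 and 7.25 at 4 months and was called higher by 0.81 ± 0.25 (adjusted p = 0.0126), whereas its second probe set read 6.92 and 7.16 at P28 and 6.92 and 6.61 at 4 months.

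**Figure D2:**
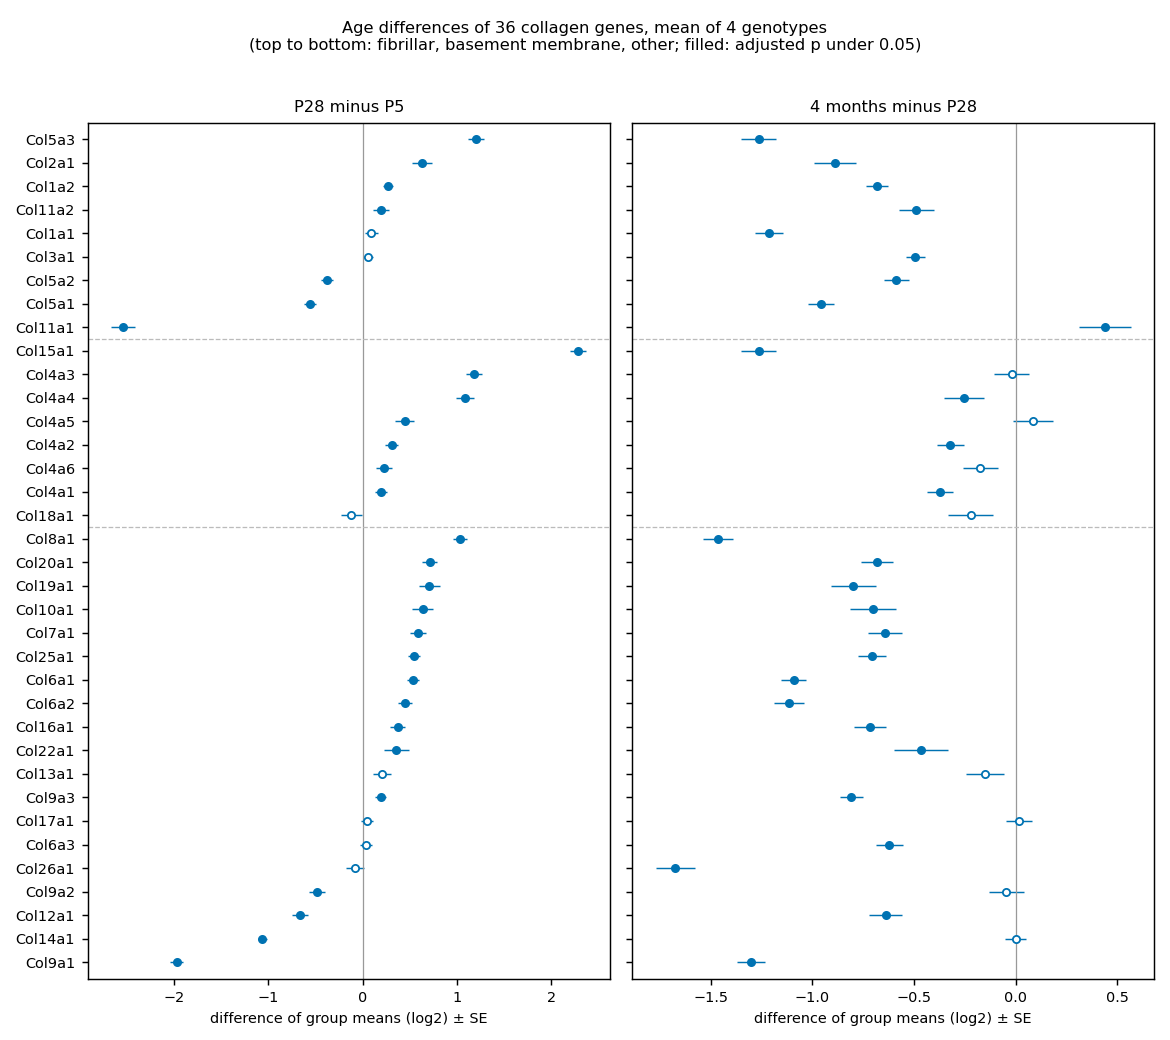
Difference of means with its SE for each of the 36 collagens between ages, averaged over the 4 genotypes (8 arrays an age); filled points passed an adjusted p of 0.05. Basement membrane collagens lie above 0 from P5 to P28 except Col18a1, and from P28 to 4 months 27 genes were called lower and 1, Col11a1, higher.

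With all 4 genotypes averaged, 29 collagens changed from P5 to P28 (22 higher, 7 lower) where 81.6% of all genes were called, 46.2% higher and 35.4% lower. From P28 to 4 months 28 changed, 1 higher and 27 lower, where 78.2% were called, 39.8% higher and 38.4% lower. Of the 8 basement membrane collagens 7 rose over the first step. For Col4a6, Col22a1 and Col11a2 the sign over that step turned when arrays were quantile normalized. Col1a2 passed as a rise of 0.27 ± 0.05, but its second probe set fell by 0.17 and was called lower. The smallest adjusted p from P28 to 4 months was that of Col8a1, which fell by 1.47 ± 0.07. Its second probe set did not separate these ages, at 7.41 to 8.62 at P28 and 7.64 to 8.09 at 4 months.

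Bulk RNA gives no cell counts, so fewer cells of a type and less RNA per cell cannot be told apart. The 12 fibroblast markers averaged 9.41 to 9.67 at P5, 10.38 to 10.51 at P28 and 10.18 to 10.43 at 4 months. They were thus lower at P5 than at P28, and close to the P28 range at 4 months when most collagens were lower. The 7 measured perineurial markers averaged 6.84 to 7.32, then 8.79 to 9.22, then 9.62 to 9.97, although the sheath is labelled as removed. The 6 measured adipocyte markers averaged 7.28 to 8.14, then 10.06 to 10.98, then 10.70 to 11.47. The 12 skeletal muscle markers in WT averaged 7.98 and 9.85 at P5, 11.15 and 10.50 at P28, and 6.36 and 7.02 at 4 months. In WT they were thus lower over the step in which 24 collagens fell. In each other genotype the P28 and 4-month arrays overlapped on this list. S63del, for example, gave 7.61 and 10.42 at P28 and 9.69 and 7.33 at 4 months. The part of these cells in the age differences was not tested.

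Of the 36 genes, 19 had more than 1 probe set, and for some the second changes the picture. Col1a1 is the widest case. Its brightest probe set was flat from P5 to P28 and its second rose by 4.20 in WT, from 8.99 and 9.05 to 13.21 and 13.23, before falling by 3.63. At P28 that second probe set read 13.03 to 13.38 on the 4 arrays without the mutant and 10.85 to 11.49 on the 4 with it. The 18S control described above splits the same 8 arrays. Col3a1's second probe set, which lies below the ceiling, fell by 0.55 from P5 to P28 and by 1.52 to 4 months. Col11a1's second probe set also fell by 2.45 from P5 to P28. Col9a1's second probe set fell by only 0.17 over that step, which was not called.

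**Figure D3:**
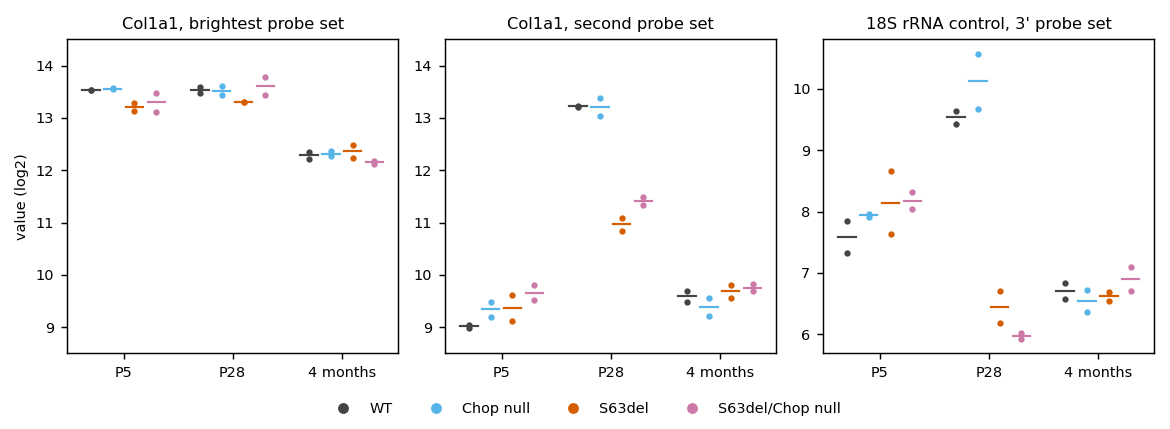
Log2 values on each of the 24 arrays for Col1a1's brightest and second probe sets and for the 3′ 18S ribosomal RNA control, by age and genotype, each dot 1 array and each dash a group mean. The first reads 13.31 to 13.79 on the P28 arrays of all genotypes, while the second and the control are higher on the 4 P28 arrays without the S63del mutant than on the 4 with it.

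At P5, 1 collagen differed between S63del and WT, where 2.4% of all genes were called. The Col9a1 value was 8.65 and 8.54 on the WT arrays, with 8.54 and 8.60 for Chop null. It was 8.02 and 8.05 with the mutant, and 8.12 and 8.02 with the mutant and no Chop. The share of all genes was not counted, and 14 of the 36 collagens have no overlap between the arrays with and without the mutant. Col9a1 is 1 of them, with both mutant groups below both others. The difference between S63del and WT was -0.56 ± 0.14 (adjusted p = 0.0442), and it was lost when any of the 4 arrays compared was left out. In S63del/Chop null against Chop null it was -0.50 ± 0.14 and did not pass (adjusted p = 0.107). There 0 collagens were called, with a background of 1.78%. An unadjusted p under 0.05 was found for 1 collagen, against 8.43% of all genes. Most other collagens read slightly low in the mutant as well, with 30 of 36 below WT and a median of -0.21 against -0.02 for all genes. Col4a1 read 12.37 and 12.26 in S63del against 12.69 and 12.73 in WT, a difference of -0.40 ± 0.13 (adjusted p = 0.167). Endothelial markers, which average 10 genes, moved with this, at 7.63 to 7.87 on the P5 arrays without the mutant and 7.39 to 7.53 on those with it. So did the 8 measured Schwann cell markers, at 11.59 to 11.61 and 11.21 to 11.32. The fibroblast list also lay lower without overlap, at 9.49 to 9.67 without the mutant and 9.41 to 9.48 with it, as did the perineurial list, at 7.05 to 7.32 and 6.84 to 7.01. Their part was not tested.

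At P28, 3 collagens differed between S63del and WT, 2 higher and 1 lower. Over all genes 4.62% were called, 3.01% higher and 1.61% lower. Col18a1 read 8.94 and 9.41 in WT and 9.95 and 9.99 in S63del, a rise of 0.80 ± 0.22 (1.75-fold, adjusted p = 0.0485). Col9a1 read 6.21 and 5.82 in WT and 6.65 and 6.50 in S63del and was higher by 0.56 ± 0.14 (adjusted p = 0.0309). Col14a1 read 10.72 and 10.69 in WT and 10.08 and 10.14 in S63del and fell by 0.59 ± 0.10 (adjusted p = 0.00344). The groups do not overlap in any of the 3, but they do not overlap in 28 of the 36 collagens. The share of all genes without overlap was not counted. The counts with arrays left out, here and below, are given without the share of all genes called. Without S63del P28 replicate 1 the number called was 0, without S63del P28 replicate 2 it was 1, and without the 2 arrays that stand apart in the series it was 9.

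S63del/Chop null against Chop null at P28 gave 6 collagens, 2 higher and 4 lower, where 17.8% of all genes were called, 9.77% higher and 8.05% lower. Col18a1 read 9.14 and 8.96 in Chop null and 9.90 and 10.22 in the double mutant, and was higher by 1.01 ± 0.22 (2.01-fold, adjusted p = 0.00828). Col16a1, a FACIT of fibroblast matrix, read 9.79 and 9.74 against 10.31 and 10.54 and was higher by 0.66 ± 0.15. Col12a1 fell by 0.67 ± 0.16, and the dim genes Col19a1, Col10a1 and Col20a1 by 0.91 ± 0.22, 0.73 ± 0.23 and 0.51 ± 0.16. Without Chop null P28 replicate 2, the array with the narrowest range, 0 collagens were called. Without S63del/Chop null P28 replicate 2 there was 1, and without Chop null P28 replicate 1 there were 13.

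**Figure D4:**
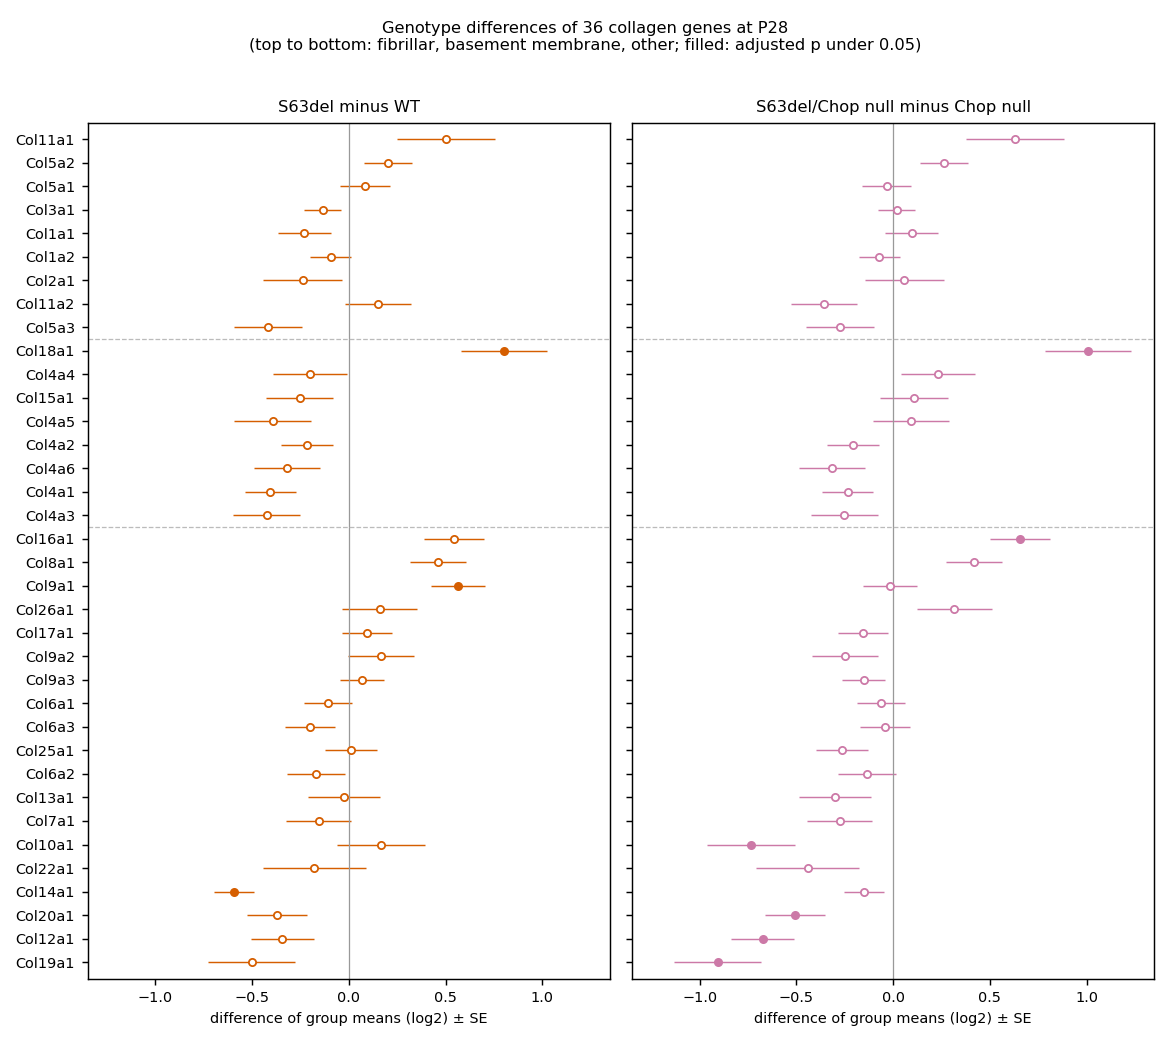
Difference of means with its SE for each of the 36 collagens at P28, S63del minus WT (left) and S63del/Chop null minus Chop null (right), from 2 arrays a group; filled points passed an adjusted p of 0.05. Col18a1 passed in both comparisons, Col14a1 and Col9a1 in the left one, and Col16a1, Col12a1, Col10a1, Col19a1 and Col20a1 in the right one.

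The mutant genotypes were also pooled, as 4 arrays with S63del against 4 without at each age, a comparison added after the data were seen. At P28, 12 collagens passed, 5 higher and 7 lower, where 28% of all genes were called, 16.1% higher and 11.9% lower, so the collagens' share, 33.3%, was not far from the background. Leaving out 1 array gave 7 (without S63del replicate 1) to 17 (without Chop null replicate 1). A fit to the P28 arrays alone called 1 collagen in the pooled comparison and 0 in each of the separate ones, and array weights gave 3 pooled. In the pooled P28 comparison dim genes had a median of -0.19 (19.5% lower) and the 14 dim collagens -0.19 (1 higher, 3 lower). Genes from the 40th to the 90th brightness percentile had 0.11 (24.7% higher), and the 9 collagens among them 0.24 (4 higher, 1 lower). Genes in the top 10% had 0.11, and their 13 collagens -0.08 (0 higher, 3 lower). Col18a1 was higher by 0.90 ± 0.16 (1.87-fold, adjusted p = 0.000882), with 8.94 to 9.41 on the arrays without the mutant and 9.90 to 10.22 on those with it. Its second probe set was higher by 0.84 and was called too. It passed in each of the 16 alternatives tried. Col16a1 was higher by 0.60 ± 0.11 (9.59 to 10.05 without, 10.31 to 10.54 with) and Col8a1 by 0.44 ± 0.10 (10.002 to 10.07 without, 10.37 to 10.57 with). The mutant and other arrays do not overlap in these 3 genes, which are among 8 of the 36 collagens without overlap. The share of all genes was not counted. On Col8a1's second probe set the arrays did overlap, at 7.41 to 8.24 without the mutant and 7.64 to 8.62 with it.

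Col11a1 and Col9a1 were called higher as well, by 0.57 ± 0.18 and 0.27 ± 0.10. The Col11a1 call was lost with array weights and with the P28 arrays alone. It was also lost without the 2 arrays that stand apart and without some single arrays. That of Col9a1 (limma adjusted p = 0.0497) was lost with array weights, with the P28 arrays alone and with an intensity trend. It was also lost with the replicate block, with the mean of all probe sets and without most single arrays. Col9a1 read 6.34 and 6.46 in Chop null and 6.40 and 6.37 in S63del/Chop null, so only S63del against WT gave a rise. Col9a1's second probe set was lower by 0.27 and was not called, so this gene's direction at P28 depends on the probe set. Lower in the mutant were Col14a1 (-0.37 ± 0.07), Col12a1 (-0.51 ± 0.12), Col4a1 (-0.32 ± 0.09), Col5a3 (-0.35 ± 0.12) and the dim Col19a1, Col20a1 and Col4a3 (-0.71 ± 0.16, -0.44 ± 0.11 and -0.34 ± 0.12). The calls of Col4a1, Col5a3 and Col4a3 were lost with array weights, with the P28 arrays alone and without some single arrays. Col4a1 read 12.75 to 13.00 without the mutant and 12.47 to 12.77 with it, and its second probe set fell by 0.53. Col4a2 read 11.49 to 11.63 and 11.14 to 11.58. The brightest probe sets of the interstitial chains, which have little room to rise, gave differences of -0.07 for Col1a1, -0.08 for Col1a2 and -0.06 for Col3a1, and none passed. Col1a2's second probe set read 13.12 to 13.24 without the mutant and 12.74 to 13.04 with it. It fell by 0.30 ± 0.09 and was called lower (adjusted p = 0.024 over all probe sets). Type VI chains did not pass either.

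At P5 the pooled comparison gave 2 collagens, both lower, where 5.97% of all genes were called. Col9a1 was lower by 0.53 ± 0.10 (adjusted p = 0.00278) and Col4a1 by 0.32 ± 0.09 (adjusted p = 0.0485). The Col4a1 call was lost without any 1 of the 8 arrays, with quantile normalization and with the replicate block. Col9a1 passed in every alternative in which it was tested, and its second probe set read 7.08 to 7.26 without the mutant and 6.57 to 6.87 with it.

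Marker levels on the 8 P28 arrays stand beside these values. The fibroblast list averaged 10.42 to 10.46 without and 10.38 to 10.51 with the mutant, but its members went both ways. Dpt (11.52 to 11.80 without, 10.86 to 11.08 with) and Mfap5 were lower without overlap. Thy1 (8.32 to 8.89 without, 9.39 to 9.59 with), Osr2 and Dcn were higher without overlap. The macrophage list was higher with the mutant (8.75 to 8.95 against 9.11 to 9.34), as was the Schwann cell list (11.35 to 11.63 against 11.63 to 11.77). The skeletal muscle list ran from 9.68 to 11.65 without and from 7.61 to 10.82 with the mutant, and the adipocyte list from 10.62 to 10.98 and 10.06 to 10.62. Endothelial markers ran from 8.01 to 8.28 and 7.91 to 8.22. The low cartilage and bone lists were lower with the mutant without overlap, at 5.53 to 5.85 against 5.15 to 5.20 and 4.40 to 5.01 against 4.24 to 4.32. The tendon list was higher without overlap, at 6.68 to 6.74 against 6.81 to 6.89. Of its members only Thbs4 split this way, at 11.06 to 11.28 against 11.91 to 12.08. The part of any of these cell types in the P28 differences was not tested.

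At 4 months 0 collagens differed between S63del and WT, and 0% of all genes were called. Of the collagens 2 had an unadjusted p under 0.05, against 4.66% of all genes. The largest differences were -0.39 for Col8a1 and 0.45 for Col18a1, the latter with 9.13 and 9.36 in WT and 9.71 and 9.67 in S63del. The 95% intervals of the 36 differences ran from -0.70 to 0.92. S63del/Chop null against Chop null also gave 0 (background 0%), with 0 unadjusted p-values under 0.05 against 1.46% of all genes. So did the pooled comparison (0%), with 0 against 3.29%. There Col18a1 read 8.98 to 9.45 without the mutant and 8.81 to 9.71 with it, so the groups overlapped.

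The change of the S63del difference between ages was tested directly. From P5 to P28 it passed for Col9a1, by 1.12 ± 0.20 (adjusted p = 0.0134), where 0.476% of all genes passed. From P28 to 4 months it passed for Col14a1, by 0.76 ± 0.14 (adjusted p = 0.0475), where 0.169% passed. The first did not pass without WT P5 replicate 1, either S63del array at P5, WT P28 replicate 2 or S63del P28 replicate 1, nor with the mean of all probe sets, and the second was lost without any 1 of the 8 arrays. With the genotypes pooled, Col9a1 passed again for the first step, at 0.80 ± 0.14 with a background of 3.1%, though not with the mean of all probe sets (0.47, adjusted p = 0.0534). For the second step Col14a1 (0.51 ± 0.10) and Col8a1 (-0.65 ± 0.15) passed, with a background of 3.15%. Both calls were lost with array weights and with the compared ages alone. That of Col8a1 was also lost with quantile normalization and with the mean of all probe sets. Without Chop null P28 replicate 1, 9 collagens passed in each of the pooled steps. Without either WT array at P28, 2 passed in the first step. The second step gave 4 without WT P28 replicate 2 and 1 without S63del P28 replicate 1, S63del/Chop null P28 replicate 2 or S63del 4-month replicate 1. For Col18a1 the pooled change from P28 to 4 months was -0.68 ± 0.22 and did not pass (adjusted p = 0.0954).

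Loss of Chop alone changed 0 collagens at P5, P28 and 4 months, with backgrounds of 0%, 0% and 0.00807%. Unadjusted p-values under 0.05 numbered 0, 5 and 1 of the 36, against 0.92%, 10% and 5.91% of all genes. Without Chop null P28 replicate 1, 8 collagens passed at P28. Removing Chop from S63del nerve likewise changed 0 at each age, with backgrounds of 0.0161%, 0.00807% and 0.00807%. The unadjusted p was under 0.05 for 0, 3 and 3 collagens, against 0.888%, 3.76% and 2.21% of all genes. At P28 the differences between S63del/Chop null and S63del ran from -0.35 (Col19a1) to 0.41 (Col4a4), with 95% intervals from -0.82 to 0.81. Col18a1 read 9.95 and 9.99 in S63del and 9.90 and 10.22 in the double mutant. Col14a1 read 10.08 and 10.14 and then 10.36 and 10.30, a difference of 0.22 ± 0.10 (adjusted p = 1). The test of whether the mutant's difference depended on Chop gave 0 collagens at each age (0%, 0% and 0% of all genes). In this test the unadjusted p was under 0.05 for 0, 3 and 0 collagens, against 0.863%, 7.84% and 2.6% of all genes. The smallest adjusted p was 0.454, for Col14a1 at P28, and 4 passed there without Chop null replicate 1. With 2 arrays a group the median 95% interval of a collagen was ±0.34 for a difference between groups, and ±0.48 for this test. These intervals are not adjusted for the number of genes, and the adjusted threshold is stricter. Effects larger than these could also go uncalled, such as -0.90 for Col10a1 in this test at P28.

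Of the enzymes that modify collagen chains in the ER, most of those called with age in WT were lower. Those called with the mutant at P28 were higher. The WT arrays at P28 stand on opposite sides of these comparisons, so the opposite directions are not independent. Of 12 measured genes for hydroxylation and glycosylation, 1 was higher and 8 were lower at P28 than at P5 in WT, where 31.3% of all genes were higher and 28.2% lower. Plod2, a lysyl hydroxylase, fell by 1.46 ± 0.19, and P3h1 and P3h4 by 1.11 ± 0.11 and 1.18 ± 0.16. The median of the 12 was -0.46 against 0.08 for all genes. In the pooled comparison at P28, 7 of the 12 were higher and none lower, where 16.1% of all genes were higher and 11.9% lower. Genes from the 40th to the 90th brightness percentile went the same ways. Their median was -0.21 from P5 to P28 in WT, with 41% lower, and 0.11 in the pooled comparison, with 24.7% higher. Whether the 12 differ from genes of their own brightness was not tested. Colgalt1, which adds galactose to hydroxylysine, read 8.70 to 8.91 without and 9.21 to 9.48 with the mutant and was higher by 0.48 ± 0.08. Plod2, Plod1 and P4hb, the beta subunit of prolyl 4-hydroxylase, were higher by 0.55 ± 0.14, 0.42 ± 0.09 and 0.38 ± 0.09. P4hb and Ppib also serve other ER clients. In S63del against WT alone only Colgalt1 passed (0.49 ± 0.12, adjusted p = 0.0234).

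Of 11 genes for folding and export, 2 rose and 5 fell from P5 to P28 in WT (31.3% and 28.2% of all genes). Serpinh1, the collagen chaperone Hsp47, rose by 0.58 ± 0.15 and then fell by 1.19 ± 0.15 to 4 months. In the pooled comparison at P28, 3 of the 11 were lower and none higher (11.9% and 16.1% of all genes). Kdelr2, an ER retrieval receptor, read 11.35 to 12.25 without and 9.96 to 10.10 with the mutant, a fall of 1.73 ± 0.16. This is the same split of arrays as in the 18S control. Serpinh1 differed by 0.15 and did not pass.

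Of 5 genes for propeptide removal, Bmp1 and its enhancer Pcolce2 rose from P5 to P28, by 0.79 ± 0.13 and 1.55 ± 0.28, and Tll2 fell. Of 9 for cross-linking and fibril assembly, 7 rose and 1 fell. Over this step 31.3% of all genes rose and 28.2% fell. Lox, the lysyl oxidase that cross-links fibrils, read 10.75 and 10.66 at P5 and 12.53 and 12.51 at P28 and rose by 1.81 ± 0.16. Tnxb rose by 1.36 ± 0.19 and Thbs2 fell by 1.74 ± 0.14. In the pooled comparison at P28 Lox was lower by 0.43 ± 0.11 and Thbs2 and Fn1 were higher, by 0.59 ± 0.10 and 0.25 ± 0.08. Thbs2 also passed in S63del against WT (0.53 ± 0.14). Of 7 receptor and uptake genes, Ddr2, a fibrillar collagen receptor kinase, rose by 1.12 ± 0.22 and then fell by 1.66 ± 0.22 in WT. Ddr1 rose by 1.37 ± 0.27 from P28 to 4 months, and at P28 it was higher by 0.74 ± 0.19 in the pooled mutant genotypes. Values for Col18a1, Col16a1 and these enzymes came from the same 8 arrays and share their features.

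**Figure D5:**
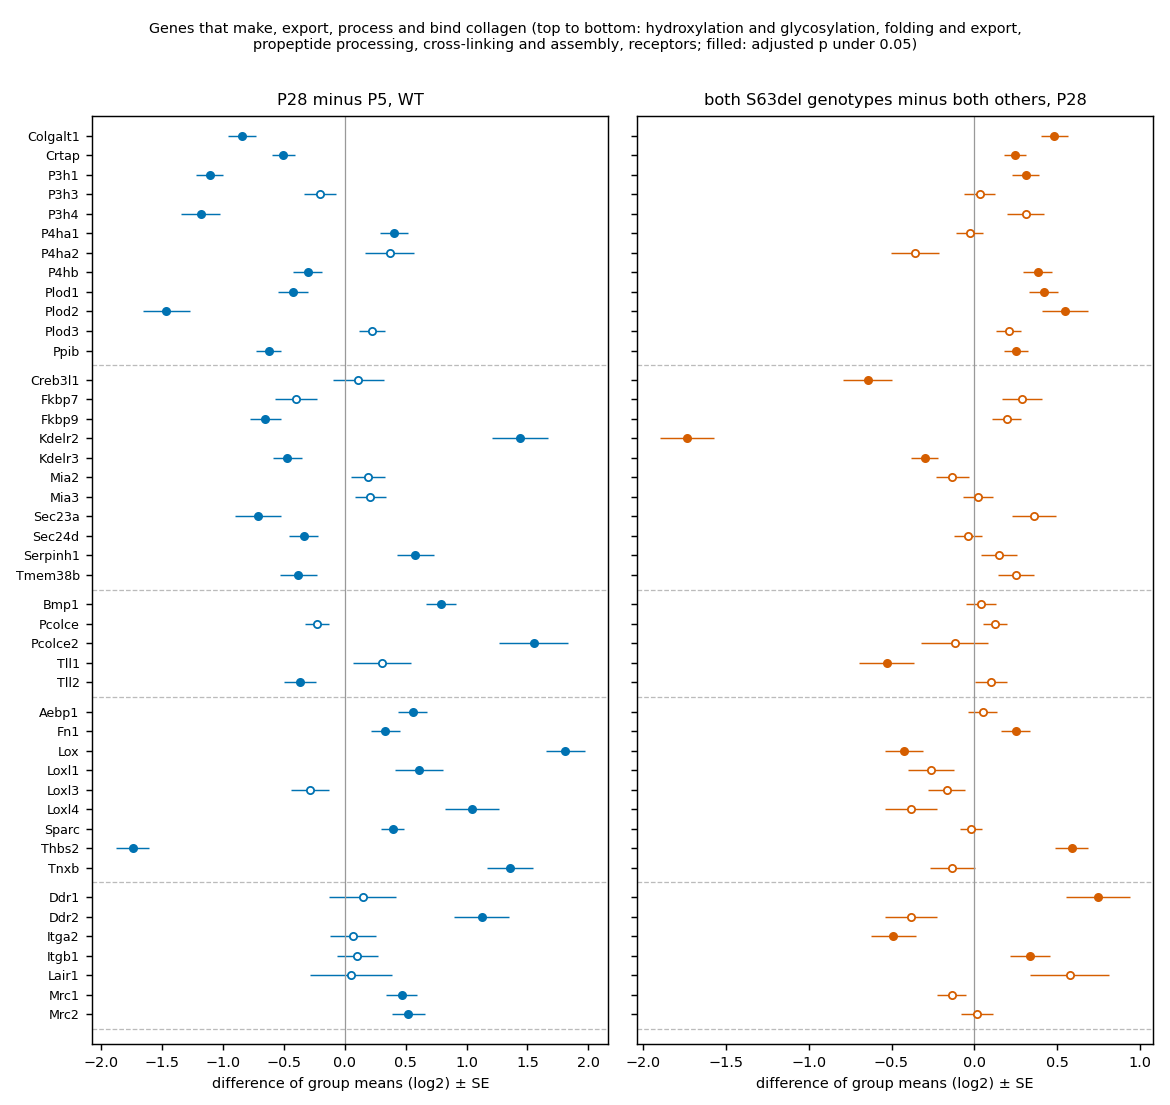
Difference of means with its SE for the 44 measured genes of collagen modification, export, processing, cross-linking and reception: P28 minus P5 in WT (left) and both S63del genotypes minus both others at P28 (right); filled points passed an adjusted p of 0.05. In the hydroxylation and glycosylation group 8 of 12 are lower on the left and 7 of 12 higher on the right, and Kdelr2 is the lowest point on the right.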

How the data were processed

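RNA from sciatic nerve was hybridised to Affymetrix arrays, 24 in all and 2 for each of 12 groups. The deposited log2 expression values were used as they stand. They run from 2.46 to 14.31, and no software or normalization for them is given in the sources used here. Precision is limited by the small number of arrays. Of 22690 probe sets, 64 are controls, 20380 have 1 annotated symbol, 691 several and 1555 none; only those with 1 symbol entered, and 20351 probe sets matched the gene table. The brightest probe set stood for a gene. No gene was filtered out. One limma model (3.58.1, R 4.3.3) with 12 group means and 12 residual degrees of freedom gave each difference, with eBayes and Benjamini-Hochberg adjustment over 12393 genes. The steps were tested on simulated data.

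Named genes are the collagens past the threshold in a comparison (up to 6 each way by size), 12 main chains always, and up to 4 genes each way of the pathway lists. Members and lists were chosen with earlier results of these data known. The pooled comparison and the fit of single probe sets were added after the data were seen. Whether replicates are separate animals or pools is not stated, so p-values measure the spread between these arrays. Alternatives were the mean over a gene's probe sets, quantile normalization, dim genes left out, array weights, an intensity trend, single ages, a replicate block and arrays left out. Collagens such as Col24a1, Col27a1 and Col6a5 were not analysed here. Promoter sequences are RefSeq's.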

Additional observations from a re-analysis of the deposited data

Results flagged for a closer look

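The S63del effect of Col9a1 differed between ages by the test of the difference itself, with a change of 1.12 on the log2 scale from P5 to P28 between S63del and WT and of 0.80 with the genotypes pooled. On its brightest probe set Col9a1 was lower in the mutant at P5. At P28 it was higher in S63del than in WT, but not in S63del/Chop null than in Chop null. Its second probe set read lower at both ages without passing. The S63del effect of Col14a1 changed by 0.76 from P28 to 4 months, and by 0.51 with the genotypes pooled. Both its probe sets were lower in S63del at P28. The pooled effect of Col8a1 changed by -0.65 from P28 to 4 months, a call that was lost with the mean of all probe sets, among other alternatives.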

How the results depend on the processing

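Of 132 values called in the comparisons, 82 kept their direction and their call under every alternative tried, 80 of 103 age values and 2 of 29 genotype values, so the genotype calls are the fragile ones. Counts of collagens called follow, with the value first reported in brackets. The share of all genes called under each alternative is not given beside them. A changed count is therefore not read as particular to collagens.

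Leaving out dim genes gave 12 (21) for WT P5 to P28 and 17 (29) for the 4 genotypes, because fewer members were tested, and 0 (1) for S63del against WT at P5 and for both P5 to P28 tests of the S63del effect. Array weights gave 7 (1) for S63del against WT at P5 and 13 (2) pooled, 1 (0) and 0 (6) for S63del/Chop null against Chop null at P5 and P28, 3 (12) pooled at P28 and 0 (2) for the pooled change to 4 months. Fits of the compared ages only gave 4 (1), 8 (2) and 1 (0) at P5 for the same 3 comparisons, at P28 0 (3) for S63del against WT, 0 (6) for the double mutant and 1 (12) pooled, and 0 for both changes to 4 months. An intensity trend gave 0 (1) and 6 (2) at P5 and 5 (3) for S63del against WT at P28. Quantile normalization gave 0 (1) for S63del against WT at P5 and 1 (2) for the pooled change to 4 months. Without the 2 arrays that stand apart, counts were 9 (3) for S63del against WT at P28, 1 (6) for the double mutant, and at P5 4 (2) pooled and 1 (0) for the double mutant.

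Same-numbered replicates did not deviate together (18 pairs within an age, correlations from -0.48 to 0.35, 5 over 0.1), so the numbers do not pair the arrays. With the replicate number as a block, counts were 0 (1) for S63del against WT at P5, 1 (2) pooled at P5, 0 (1) for the S63del change to 4 months, and within 1.5 times the reported count elsewhere.

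Leaving out 1 array gave 0 for S63del against WT at P5, 0 to 3 at P28, 0 to 13 for the double mutant at P28, 0 to 8 for Chop null and 0 to 4 for the Chop dependence at P28, 0 to 1 and 0 for the S63del changes between ages, 1 to 2 and 7 to 17 for the pooled comparison at P5 and P28, and 1 to 9 for both its changes.

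Directions that turned, over 4 genotypes from P5 to P28, were Col11a2 (-0.20), Col22a1 (-0.032) and Col4a6 (-0.088) with quantile normalization, and Col9a3 (-0.29) and Col3a1 (-0.23) with the mean of all probe sets. From P28 to 4 months they were Col4a4 (0.077), Col9a2 (0.31), Col4a3 (0.32) and Col14a1 (-0.22) with quantile normalization, and Col11a1 (-0.061) and Col14a1 (-0.27) with the mean. Col1a1 turned with the mean, to -0.85 in the double mutant at P28 and to -1.26 and -1.07 for the P5 to P28 change of the S63del effect. Apart from the dim genes and the probe sets, the cause was not tested.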
